A study of Mus musculus with 8 samples.

Results

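The 10 genes described here encode enzymes of the peroxisome, chosen by symbol: the oxidases *Hao1*, *Hao2* and *Pipox*, the Nudix hydrolases *Nudt7*, *Nudt12* and *Nudt19*, and *Agxt*, *Phyh*, *Pecr* and *Cat*. They were chosen with earlier results of these data known. All 10 had a row among the 24940 genes of the count table, and all 10 passed the expression filter that left 12340 genes for testing. *Hao2* passed it through the BCL6LKOFXRKO livers alone, so its difference was bound to appear. Liver RNA came from 8 C57BL/6 males, 4 of the group FXRKO and 4 of the group BCL6LKOFXRKO. All 8 mice were homozygous for the whole-body FXR (*Nr1h4*) knockout and carried *Bcl6*(fl/fl), a floxed *Bcl6* gene. The BCL6LKOFXRKO mice additionally carried Alb-Cre, a recombinase driven by the albumin promoter, which deletes *Bcl6* in hepatocytes. Whether *Bcl6* was kept in other liver cells was not examined here. The age of the mice and the feeding state of each liver are not given in the sources used here, and livers with intact *Fxr* were not analysed here, and Alb-Cre itself and the loss of *Bcl6* cannot be told apart. The labels name separate livers with no batch or pairing.

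Peroxisomes are small organelles, abundant in hepatocytes, that hold oxidases using molecular oxygen and giving off hydrogen peroxide, together with catalase, which breaks it down. Besides shortening very long fatty acids, they oxidize glycolate, pipecolate and branched fatty acids, and they clear glyoxylate before it becomes oxalate. Since coenzyme A cannot freely cross their membrane, Nudix hydrolases inside them cut coenzyme A and its acyl esters, and thereby set how much of the cofactor is held there. The label of the set names oxidases and CoA hydrolases, but it is wider than that: *Nudt12* encodes a hydrolase of NADH, *Agxt* an aminotransferase, *Phyh* a hydroxylase, *Pecr* a reductase and *Cat* catalase.

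The sequences 5′ of the 3 genes with the greatest differences between genotypes are shown first, to let the promoters of the *Hao* paralogs, which moved in opposite directions, be read beside that of *Nudt7*. Windows of 300 bases, from 250 bases before to 50 bases after a RefSeq transcript start on GRCm38.p6, the assembly of mm10, were found for 9 of the 10 genes (10 windows). They are written 5′ to 3′ on the strand of the gene, with capitals marking CG dinucleotides. *Hao1* is at chr2:134554303-134554602 on the minus strand, *Hao2* at chr3:98893181-98893480 on the minus strand and *Nudt7* at chr8:114133324-114133623 on the plus strand, each at the start of the transcript counted in the table. The other *Nudt7* window, at chr8:114133368-114133667, belongs to another RefSeq start.
Hao1: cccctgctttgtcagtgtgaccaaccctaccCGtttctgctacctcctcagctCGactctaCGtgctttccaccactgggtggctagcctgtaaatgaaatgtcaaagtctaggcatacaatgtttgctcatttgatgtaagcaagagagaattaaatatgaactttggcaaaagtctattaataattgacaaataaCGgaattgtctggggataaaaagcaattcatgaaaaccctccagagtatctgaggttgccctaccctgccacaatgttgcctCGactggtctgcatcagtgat
Hao2: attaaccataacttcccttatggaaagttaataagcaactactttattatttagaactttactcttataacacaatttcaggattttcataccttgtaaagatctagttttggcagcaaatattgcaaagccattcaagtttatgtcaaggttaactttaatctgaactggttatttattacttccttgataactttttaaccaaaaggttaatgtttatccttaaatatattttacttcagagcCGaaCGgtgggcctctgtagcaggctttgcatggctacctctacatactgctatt
Nudt7: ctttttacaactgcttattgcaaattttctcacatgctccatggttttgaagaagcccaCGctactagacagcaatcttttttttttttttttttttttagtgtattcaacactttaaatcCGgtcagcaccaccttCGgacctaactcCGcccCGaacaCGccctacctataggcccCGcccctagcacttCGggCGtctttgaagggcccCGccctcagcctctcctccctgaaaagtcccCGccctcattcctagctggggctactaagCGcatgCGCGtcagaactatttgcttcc
The *Hao2* window was the poorest in G and C of the 10, at 32.3%, and held 2 CG dinucleotides, against a median of 52.7% and 7 over all 32851 windows. The *Hao1* window had 44% and 5 CG dinucleotides, and that of *Nudt7* had 49.7% and 14. Among the other windows the GC content lay between 52% and 62%, with 21 CG dinucleotides in *Pecr*, the most of the set. Searched on both strands, TTCNNNGAA, the letters shared by STAT and BCL6 sites, was found in none of the 10 windows and in 8.3% of all windows, TATAAA in none and in 13.6%, and the direct repeat bound by PPAR and other nuclear receptors, AGGTCA repeated after a spacer of 1 base, in none and in 0.0396%. The hexamer AGGTCA alone, which also makes up that repeat, was in the windows of *Phyh* and *Cat* and in 16.3% of all windows. These are matches of letters in short windows and say nothing on binding.

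Each library had between 7586241 and 11839503 counts on genes. Livers of a genotype always differed by more than sampling noise, as the chi-square of every pair was at least 10.8 times its degrees of freedom. *Bcl6*, the gene deleted by Alb-Cre, was at 21.2 to 65.2 CPM (counts per library size, scaled with TMM factors) in FXRKO livers and 4.61 to 11.9 CPM in BCL6LKOFXRKO livers, in the direction of the labels in all 8 livers, with FXRKO liver 3 the lowest of its group. *Nr1h4* was still counted, at 56.7 to 62.6 CPM and 39.4 to 48.1 CPM. The hepatocyte markers went both ways, with 3 of 10 called higher and 2 called lower. Their sum without *Alb* overlapped between the groups (29326 to 33785 CPM in FXRKO livers and 25358 to 33071 CPM in BCL6LKOFXRKO livers), whereas *Alb* took 4.04% to 5.16% of counts in FXRKO livers and 11.9% to 13.2% in BCL6LKOFXRKO livers.

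Most of the 10 genes were lower in BCL6LKOFXRKO livers. By edgeR's quasi-likelihood test at an adjusted p under 0.05, 7 of them fell, against 13.5% of all tested genes, and 1 rose, against 16.2%. Together 8 of the 10 were called, against 29.7% of all tested genes, and the 8 include *Hao2*, which could only be called higher. With a log2 fold change beyond 0.5 in addition, 6 were lower, against 9.84%, and 1 higher, against 14.1%. *Agxt* and *Nudt12* did not pass. The median log2 fold change of the oxidases was -1.50, that of the Nudix hydrolases -0.41 and that of the other 4 enzymes -0.82, beside 0.01 over all tested genes. In 8 of the 10 the CPM of the genotypes did not overlap, against 31.3% of all tested genes, with 7 lower (15.2%) and 1 higher (16.1%), and that 1 was *Hao2* throughout. In bulk liver, fewer hepatocytes and less RNA per hepatocyte cannot be told apart. Of the markers of other cells, those of stellate cells and fibroblasts moved with the genotype: 6 of 9 were higher, and their sum ran from 223 to 315 CPM in FXRKO and from 448 to 560 CPM in BCL6LKOFXRKO livers. Their part in the differences below was not tested. Cholangiocyte markers summed to 58.1 to 84.1 and 91.2 to 155 CPM (2 of 5 tested were higher), T and B cell markers to 2.37 to 5.05 and 5.14 to 8.63 CPM (all 7 in the table under the filter), and the sums of macrophage (1 of 8 higher) and endothelial markers (1 of 7 higher) overlapped between the genotypes.

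**Figure D1:**
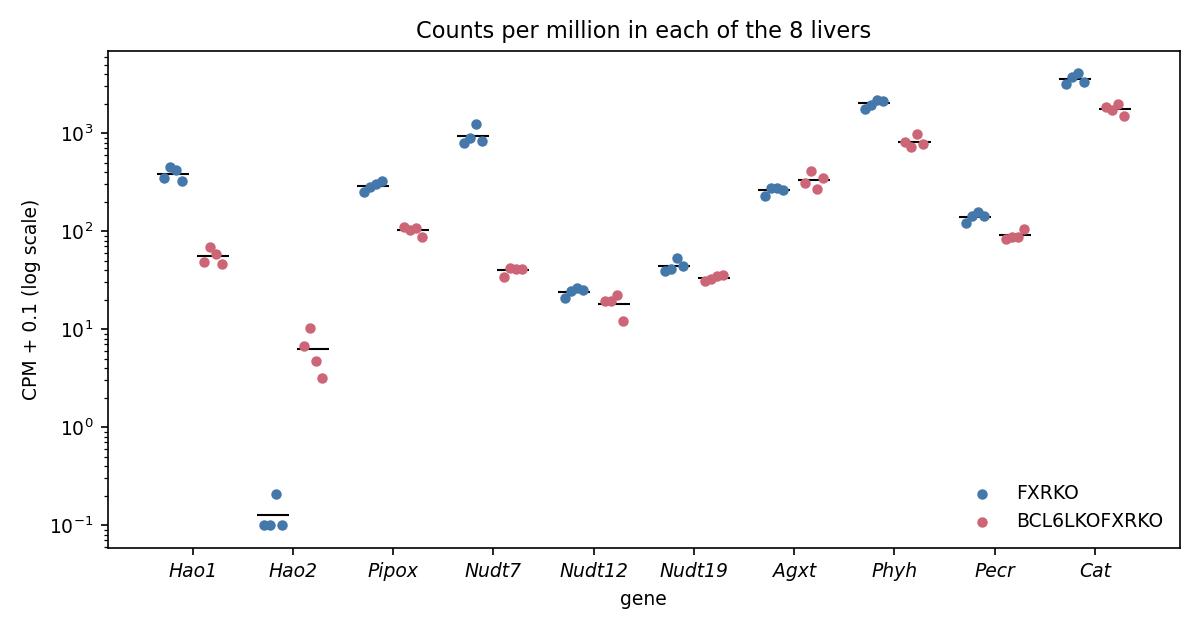
CPM, plus 0.1, of each of the 10 genes in the 4 FXRKO livers (blue) and the 4 BCL6LKOFXRKO livers (red), on a log axis, with black bars for the means. *Nudt7* drops from between 790.2 and 1253 CPM to between 34.1 and 42.0 CPM, and *Hao2* goes from at most 1 count to between 3.09 and 10.3 CPM.

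*Hao1* encodes glycolate oxidase, which turns glycolate into glyoxylate in hepatocyte peroxisomes (NM_010403, chr2:134497361-134554352 in mm10). It was at 348.9, 451, 417 and 327 CPM in the FXRKO livers and at 49.0, 68.2, 58.7 and 46.0 CPM in the BCL6LKOFXRKO livers. The groups lay far apart, and the highest BCL6LKOFXRKO liver was below every FXRKO liver. Mean levels were 386 ± 58.1 CPM and 55.5 ± 10.1 CPM (SD over 4 livers each), which gave a log2 fold change of -2.80 with an SE of 0.16 (edgeR adjusted p = 6.22e-08), so that 14.4% of the FXRKO level was left. Only 71 of the 12340 tested genes had a lower log2 fold change.

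*Hao2* encodes a second hydroxy acid oxidase, which acts on longer hydroxy acids and is also known from kidney (NM_019545, chr3:98874519-98893230). It had 0, 0, 1 and 0 counts in the FXRKO livers and 66, 85, 48 and 34 counts in the BCL6LKOFXRKO livers, or 6.65, 10.3, 4.68 and 3.09 CPM. Every BCL6LKOFXRKO liver was above the FXRKO livers, though the group was spread widely, with a coefficient of variation of 50.4%. With a floor of 3 counts per library, or 0.323 CPM on average over the FXRKO livers, *Hao2* was at least 19.1-fold higher in BCL6LKOFXRKO livers (edgeR adjusted p = 8.98e-06). Since it met the expression filter in BCL6LKOFXRKO livers alone, it could only be called higher, and this p-value adds no support. The window shown above for it is that of a gene not detectable at this depth in FXRKO livers. Of 8 kidney tubule markers, *Slc12a1*, *Slc34a1*, *Aqp2* and *Kap* had 0 counts in all 8 livers, and 7 were under 1 CPM in every liver. The remaining marker, *Slc5a2*, was at 6.97 to 9.24 CPM in FXRKO and 3.88 to 7.26 CPM in BCL6LKOFXRKO livers and was not called, while *Hao2* had 3.09 to 10.3 CPM in the latter.

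*Pipox* encodes the oxidase of pipecolate and sarcosine, on the route of lysine breakdown (NM_008952, chr11:77880615-77893872). It was at 251, 285, 307 and 322 CPM in the FXRKO livers. In the BCL6LKOFXRKO livers it was at 111, 104, 109 and 87.5 CPM, and the groups did not overlap. Its log2 fold change was -1.50 with an SE of 0.12 (edgeR adjusted p = 1.70e-06). The spread within each genotype was small, with coefficients of variation of 10.5% and 10.3%. Thus 2 of the 3 oxidases fell and *Hao2* rose from below the floor, but to a level of 3.04 ± 1.53 RPKM (SD, n = 4), far under the 27.5 ± 4.99 RPKM that *Hao1* kept in the same livers. RPKM is CPM per kilobase of the transcript length in the count table, and levels of different genes are compared on that scale.

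The largest fall was in *Nudt7*, the main peroxisomal coenzyme A hydrolase of mouse liver (NM_001290181, chr8:114133574-114152312). The FXRKO livers had 790.2, 888, 1253 and 839.9 CPM. The BCL6LKOFXRKO livers had 34.1, 42.0, 41.5 and 41.2 CPM. The loss was many times the spread within either genotype, as even the lowest FXRKO liver exceeded all BCL6LKOFXRKO livers by more than an order of magnitude. The log2 fold change was -4.57 with an SE of 0.18 (edgeR adjusted p = 1.25e-09), a 23.7-fold fall, and 40 of the 12340 tested genes had a lower log2 fold change. FXRKO liver 3, the highest, did not carry the difference, since leaving out each liver in turn gave log2 fold changes between -4.65 and -4.41.

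*Nudt19* encodes another coenzyme A hydrolase of the peroxisome, best known from kidney (NM_033080, chr7:35547185-35555928). It was at 39.0, 41.5, 53.5 and 44.0 CPM in the FXRKO livers and at 31.1, 32.3, 34.9 and 35.8 CPM in the BCL6LKOFXRKO livers. The groups did not overlap, but the gap between them was small. It fell by the test, at a log2 fold change of -0.41 with an SE of 0.12 (edgeR adjusted p = 0.0236). The call rested on single livers: without FXRKO liver 3, which was the highest, the log2 fold change was -0.31 (adjusted p = 0.0838), and without BCL6LKOFXRKO liver 1 it was -0.37 (adjusted p = 0.0693). An antisense gene, *B230322F03Rik*, overlaps *Nudt19* in GENCODE, and as the counting command names no strand, reads of the pair cannot be told apart.

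*Nudt12* encodes a peroxisomal hydrolase of NADH and of NAD caps on RNA (NM_026497, chr17:59001401-59013322). Its levels were 20.9, 24.5, 26.0 and 25.3 CPM in the FXRKO livers and 19.2, 19.3, 22.2 and 12.1 CPM in the BCL6LKOFXRKO livers. BCL6LKOFXRKO liver 4 was the lowest, and BCL6LKOFXRKO liver 3 lay within the FXRKO range. The log2 fold change of -0.41 (standard error 0.17, 95% interval from -0.78 to -0.04) missed the threshold (edgeR adjusted p = 0.088). It passed without BCL6LKOFXRKO liver 3 (log2 fold change -0.52, adjusted p = 0.0466) and with scaling to total counts alone (log2 fold change -0.57, adjusted p = 0.0258). Without BCL6LKOFXRKO liver 4 it shrank to -0.25 (adjusted p = 0.131). The antisense gene *Nudt12os*, with up to 46 counts in a liver, overlaps it and cannot be told apart without strand.

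The Nudix hydrolases thereby changed rank. Per kilobase, *Nudt7* was 12.9 to 15.8 times as high as *Nudt19* in the FXRKO livers. In the BCL6LKOFXRKO livers the ratio was 0.742 to 0.88, so that in every one of these livers *Nudt19* was above *Nudt7*. The means were 333 ± 74.4 and 14.0 ± 1.32 RPKM for *Nudt7* against 23.2 ± 3.31 and 17.5 ± 1.13 RPKM for *Nudt19* (SD, n = 4 in each genotype).

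*Agxt* encodes alanine-glyoxylate aminotransferase, which removes the glyoxylate that glycolate oxidase makes, and whose loss in humans causes a primary hyperoxaluria (NM_016702, chr1:93135240-93145421). It was at 227, 279, 276 and 261 CPM in the FXRKO livers. It was at 311, 410.1, 271 and 349.8 CPM in the BCL6LKOFXRKO livers, of which only liver 3 lay within the FXRKO range. Its log2 fold change of 0.36 (standard error 0.14, 95% interval from 0.06 to 0.66) missed the threshold by edgeR (adjusted p = 0.0642). By permutation over the livers (exact, two-sided) p was 0.0857. Apart from *Hao2*, *Agxt* was the only 1 of the 10 genes with a log2 fold change above 0, which held under every alternative run. Without BCL6LKOFXRKO liver 3 the log2 fold change was 0.45 (adjusted p = 0.0272), and with total counts alone it was 0.20 (adjusted p = 0.253). Between the enzyme that makes glyoxylate and its remover, the ratio of *Agxt* to *Hao1* in RPKM was 0.896 ± 0.105 in FXRKO livers and 8.06 ± 1.61 in BCL6LKOFXRKO livers (SD, n = 4 in each genotype). The lowest ratio in BCL6LKOFXRKO livers was 6.04 and the highest in FXRKO livers 1.05. All pairs given as ratios here were put together after their values were known, and no test is given for them.

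**Figure D2:**
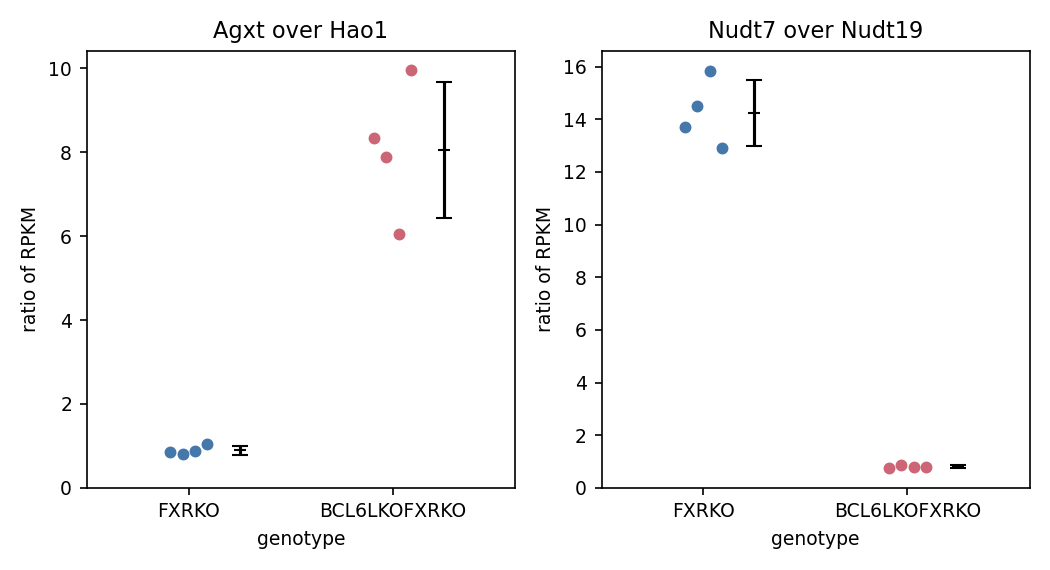
Ratio of RPKM of *Agxt* to *Hao1* (left) and of *Nudt7* to *Nudt19* (right) in each FXRKO liver (blue) and each BCL6LKOFXRKO liver (red), with black bars for the mean and SD of 4 livers. The first ratio is 0.811 to 1.05 in FXRKO and 6.04 to 9.96 in BCL6LKOFXRKO livers, and the second is 12.9 to 15.8 in FXRKO and 0.742 to 0.88 in BCL6LKOFXRKO livers.

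*Phyh* encodes the hydroxylase that begins the alpha-oxidation of phytanic acid, a branched fatty acid from the diet, and is mutated in Refsum disease (NM_010726, chr2:4918996-4938743). It was at 1781, 1948, 2191 and 2132 CPM in the FXRKO livers and at 811, 717, 978 and 773 CPM in the BCL6LKOFXRKO livers. No BCL6LKOFXRKO liver came near the FXRKO range. It fell by the test, at a log2 fold change of -1.30 with an SE of 0.13 (edgeR adjusted p = 1.42e-05). *Hacl1*, the lyase that acts next in alpha-oxidation, went the other way, with 258 ± 22.9 CPM in FXRKO and 374 ± 71.6 CPM in BCL6LKOFXRKO livers (SD over 4 livers each, edgeR adjusted p = 0.0138), a call that was lost with total counts alone.

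*Cat*, the gene of catalase (NM_009804, chr2:103453904-103485153), was at 3218, 3706, 4086 and 3309 CPM in the FXRKO livers and at 1869, 1739, 1966 and 1505 CPM in the BCL6LKOFXRKO livers. The groups were again separate. With a log2 fold change of -1.02 with an SE of 0.13 (edgeR adjusted p = 1.10e-04), 49.4% of the FXRKO level remained. *Cat* fell less than the oxidases *Hao1* and *Pipox*, and the ratio of *Cat* to *Hao1* in RPKM was 6.54 to 8.07 in FXRKO and 20.3 to 30.4 in BCL6LKOFXRKO livers. This did not hold for every oxidase, as urate oxidase *Uox* had a log2 fold change of -0.50 and *Hao2* rose. Falls of different genes were not tested against each other.

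*Pecr* encodes a peroxisomal reductase of trans-enoyl-CoA, which uses NADPH (NM_023523, chr1:72259173-72284321). It was at 120.0, 142, 157 and 141 CPM in the FXRKO livers and at 83.2, 86.5, 88.1 and 104 CPM in the BCL6LKOFXRKO livers. BCL6LKOFXRKO liver 4 came closest to the FXRKO livers without reaching them. Its log2 fold change was -0.63 with an SE of 0.12 (edgeR adjusted p = 0.00145). *D230017M19Rik*, on the other strand, overlaps it with at most 5 counts in a liver.

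**Figure D3:**
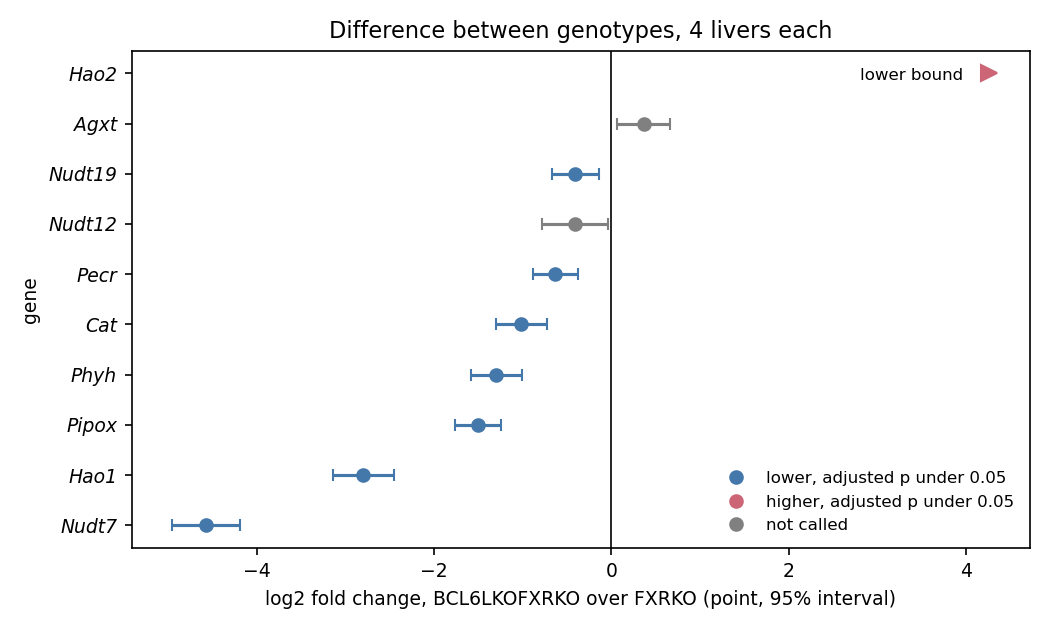
Log2 fold change of BCL6LKOFXRKO over FXRKO livers from edgeR with its 95% interval, for the 10 genes in order, with blue for genes called lower, red for higher and grey for those not called. *Hao2* is drawn as a triangle at its lower bound of 19.1-fold, since FXRKO livers had at most 1 count of it, and the other values run from -4.57 for *Nudt7* to 0.36 for *Agxt*.

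By the exact two-sided permutation test over the 70 orderings of the livers, p was 0.0286 for each of the 8 called genes. This is the smallest value that test can give with 4 livers against 4. *Hao2* met the expression filter in BCL6LKOFXRKO livers alone, so its permutation p-value adds no support. By the same exact permutation test, p was 0.0571 for *Nudt12*.

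The order of the levels changed with the genotype. In FXRKO livers, *Cat* (1412 ± 157 RPKM, SD, n = 4) and *Phyh* (1376 ± 127) led and overlapped each other. *Nudt7* was next. *Hao1*, *Agxt* (169 ± 15.4) and *Pipox* (165 ± 17.4) overlapped below it, followed without overlap by *Pecr* (119 ± 12.9), *Nudt19* and *Nudt12* (10.6 ± 0.993). In BCL6LKOFXRKO livers, *Cat* (698 ± 78.7) and *Phyh* (560 ± 77) still led and overlapped, and *Agxt* (218 ± 38.5) now followed them. *Pecr* (76.6 ± 7.93), *Pipox* (58.3 ± 6.02), *Hao1*, *Nudt19*, *Nudt7*, *Nudt12* (8.02 ± 1.90) and *Hao2* came after it, each below the range of the one before. The summed RPKM of the 10 genes was 3359 to 4283 in FXRKO and 1549.9 to 1830 in BCL6LKOFXRKO livers. Of that sum, *Agxt* made up 4.19% to 4.74% in FXRKO and 9.60% to 16.1% in BCL6LKOFXRKO livers, *Nudt7* 7.95% to 10.3% and 0.713% to 0.939%, and *Hao1* 4.34% to 5.84% and 1.43% to 2.04%. Among the 12340 tested genes ordered by mean RPKM, *Nudt7* went from place 208 to 3297 and *Hao1* from 380 to 1953, whereas *Cat* went from 49 to 86 and *Phyh* from 52 to 113.

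**Figure D4:**
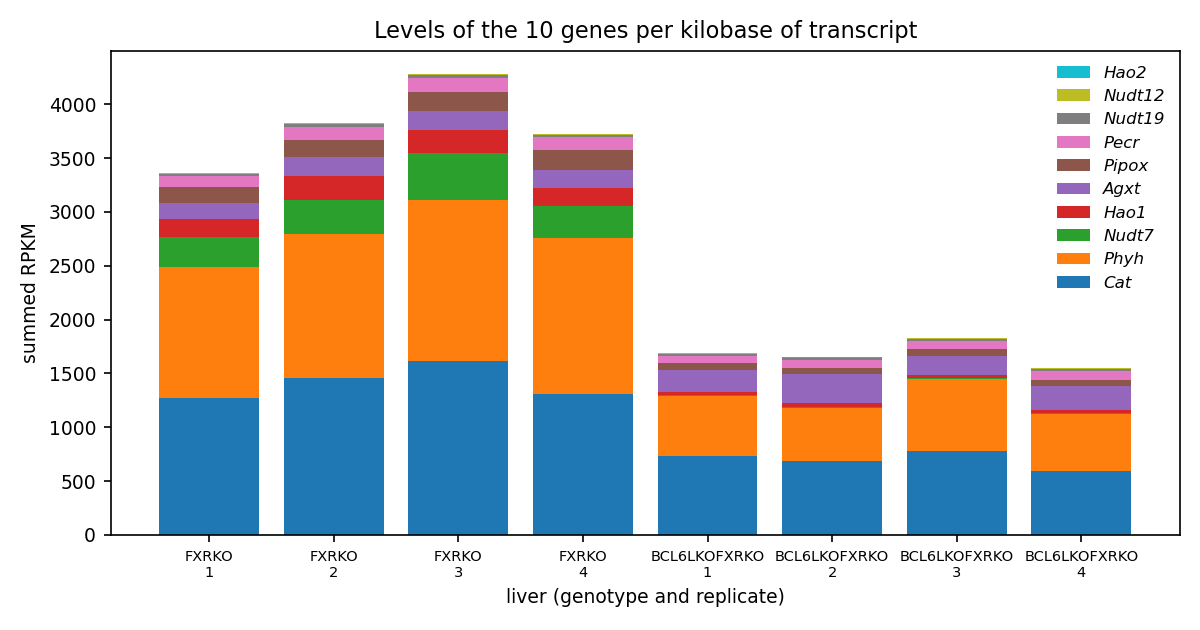
RPKM of the 10 genes, stacked, in each FXRKO and BCL6LKOFXRKO liver. The total runs from 3359 to 4283 in FXRKO livers and from 1549.9 to 1830 in BCL6LKOFXRKO livers, *Cat* and *Phyh* make up most of every bar, and the band of *Nudt7* is hardly visible in BCL6LKOFXRKO livers.

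Among the FXRKO livers, the genes tended to share the rank of a liver. The share of all tested genes with the same ranks was not counted. FXRKO liver 1 was the lowest of its group for 8 of the 9 genes compared, all but *Hao1*, and FXRKO liver 3, the liver with the lowest *Bcl6*, was the highest for 6, *Nudt7*, *Nudt12*, *Nudt19*, *Phyh*, *Pecr* and *Cat*. The median deviation of the 9 genes from their group mean on the log2 scale was -0.19 in FXRKO liver 1 and 0.13 in FXRKO liver 3. Over all tested genes it was 0.0044 and 0.0025, but TMM scaling keeps that median small in every library. In BCL6LKOFXRKO livers the ranks were more mixed. Liver 4 was the lowest for 5 of 10 genes, *Hao1*, *Hao2*, *Pipox*, *Nudt12* and *Cat*, but the highest for *Nudt19* and *Pecr*, and liver 2 was the highest for *Hao1*, *Hao2*, *Nudt7* and *Agxt*. *Hao1* and *Hao2*, which differed between genotypes in opposite directions, thus had the same highest and the same lowest BCL6LKOFXRKO liver.

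The 93 other genes of peroxisomes, glyoxylate and coenzyme A that were listed by function gave a milder picture. Of 91 tested, 32 were lower (35.2%, against 13.5% of all tested genes) and 11 higher (12.1%, against 16.2%). Their median log2 fold change was -0.24. *Ppara*, the gene of a nuclear receptor with many peroxisomal target genes, was lower, with 258 ± 38.1 CPM in FXRKO and 130 ± 34 CPM in BCL6LKOFXRKO livers (SD over 4 livers each, edgeR adjusted p = 0.00104). Its part in the differences described here was not tested. In glyoxylate handling, 3 of 6 were lower: *Grhpr*, a reductase of glyoxylate (log2 fold change -1.13), *Agxt2* (-0.96) and *Ldha* (-0.86). *Hoga1* and *Prodh2*, of hydroxyproline breakdown, did not pass (-0.21 and 0.12). In coenzyme A and NAD turnover, 3 of 17 were lower (17.6%, near the share of all tested genes), *Pank1*, which starts coenzyme A synthesis (-0.94), *Acot12* (-0.58) and the pantetheinase *Vnn1* (-0.40), and 1 was higher, *Vnn3* (1.66).

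The counts of each list below stand beside 13.5% of all tested genes called lower and 16.2% called higher. Of the peroxisomal beta-oxidation genes, 9 of 21 were lower (42.9%), among them *Crot* (50.1% of the FXRKO level) and *Hsd17b4* (log2 fold change -0.34). *Acaa1b* (-0.75), *Acot8* (-0.16) and *Ehhadh* (0.27) did not pass. The 5 higher ones (23.8%) were *Eci3*, *Crat*, *Acot3*, *Acot4* and *Acot6*, and the *Acot* genes lie in a family of close copies whose shared reads were not counted. *Eci3* (0 to 4 counts in FXRKO livers) and *Acot6* (5 to 9 counts) met the expression filter in BCL6LKOFXRKO livers alone, like *Hao2*, and could only be called higher. Of other oxidases and antioxidant enzymes, 4 of 8 were lower (50%), including urate oxidase *Uox* (-0.50) and *Ephx2* (-0.40). *Prdx5* was not called (-0.16), and *Dao* had 0 counts in all 8 livers. Of the membrane transporters, 5 of 10 were lower (50%), including *Abcd3* (-0.98) and *Slc25a17* (-0.69), a carrier of coenzyme A and other cofactors. *Abcd2* (2.31) was among the higher ones. Among the *Pex* genes, which build the organelle, 5 of 16 were lower (31.2%), *Pex11a* most (-0.78). The other 11 did not pass, with *Pex5*, the import receptor, at -0.06. With total counts alone, 10 of the *Pex* genes were lower. Of the peroxisomal reductases, dehydrogenases and proteases, 1 of 9 was lower (11.1%, below the share of all tested genes), *Lonp2* (-0.75). In that list 3 were higher (33.3%), *Hacl1*, *Idh1* (0.44) and *Dhrs7b* (0.44), with *Dhrs4* at -0.01. With total counts alone these 3 did not pass. Of the ether lipid genes, 2 of 4 were lower (50%), *Gnpat* and *Far2*. *Nudt7* and *Hao1* fell further on the log2 scale than any of the 91 tested.

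**Figure D5:**
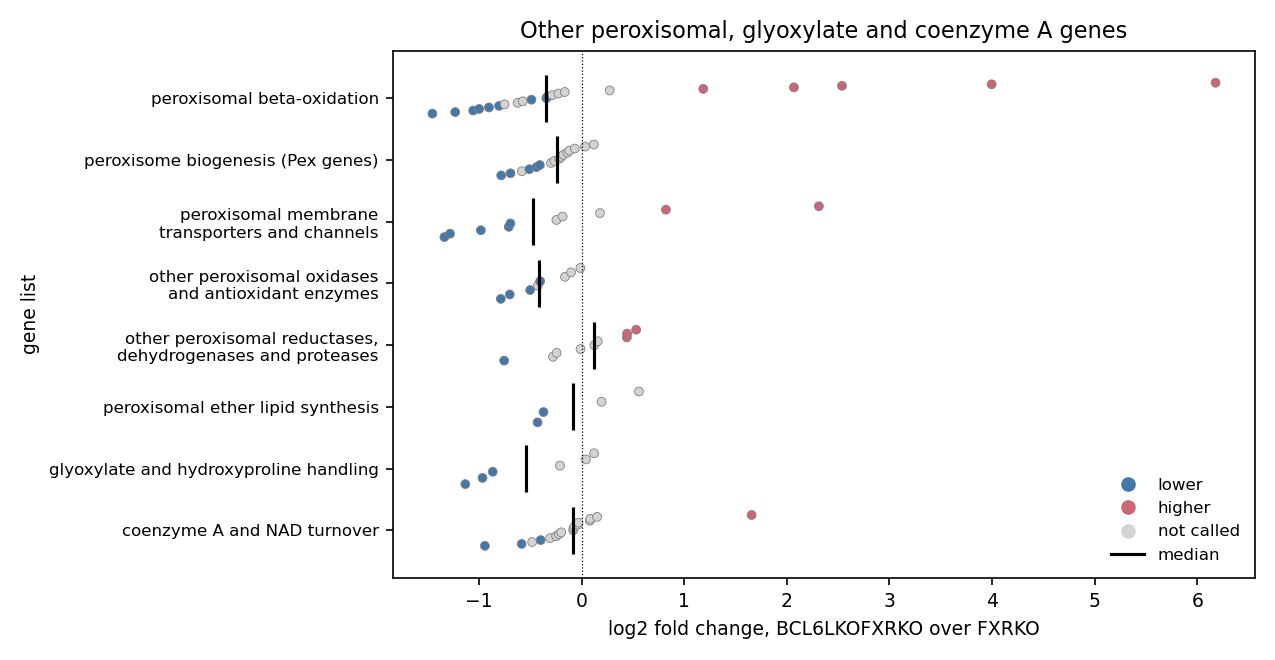
Log2 fold change of BCL6LKOFXRKO over FXRKO livers from edgeR for the tested genes of each list, with 1 point a gene, blue for genes called lower, red for higher, light grey for not called, and a black line for the median. The medians run from -0.54 in glyoxylate and hydroxyproline handling to 0.13 in the reductases, dehydrogenases and proteases, and no point lies as low as *Hao1* at -2.80.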

How the data were processed

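RNA-seq counts of 8 livers (4 FXRKO, 4 BCL6LKOFXRKO, grouped by the labels) were used. The authors sequenced 100 bp single-end reads from a stranded kit, aligned them to mm10 (STAR 2.5.2, reads with more than 1 location or more than 4 mismatches dropped) and deposited raw counts of exon reads from HOMER 4.10, condensed to 1 transcript a gene, with no strand option in the command. The table also gives transcript lengths in bases. The submitters' processing notes name both versions.

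All tests ran on these counts in R 4.3.3, by edgeR 4.0.16 (filterByExpr, TMM, robust quasi-likelihood fit of all 12340 tested genes, Benjamini-Hochberg adjustment). Calls were made below an adjusted p of 0.05. Standard errors are the absolute log2 fold change over the square root of F. CPM use TMM factors and the library totals of tested genes. Permutation tests used log2(CPM + 0.5). Totals of 7586241 to 11839503 counts put a floor of 3 counts at 0.272 to 0.375 CPM, which covers counting error only. In counts simulated for the 12340 genes, edgeR recovered 72% of 100 genes changed by 1 on the log2 scale and 98% of 100 changed by 2, and 7.61% of its calls were false. Alternatives were DESeq2 1.42.0, limma 3.58.1 (voom with quality weights), RLE factors, total counts alone, the 50 most counted genes left out, other filters, a fold threshold and each liver left out. The genes named are the 10 members, the targeted genes, a list of enzymes and transporters by role, and members of lists where at most 5 were called in a direction. The members, lists and tests were chosen with earlier results of these data known. The p-values set the difference between the genotypes against the spread between livers. Some genes of the lists are not reported here by name.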

Additional observations from a re-analysis of the deposited data

Results flagged for a closer look

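Of 19 comparisons of a single liver with the other 3 of its genotype, over the 10 genes, 1 stood apart, where the measure was the distance to the closest liver as a part of the group's whole range (Dixon's ratio). *Nudt7* in BCL6LKOFXRKO liver 1 was at 34.1 CPM, against 41.2 to 42.0 CPM in the others, a ratio of 0.902, above the 95% limit for 4 samples. Chance gives about 1 in 20 such comparisons.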

How the results depend on the processing

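No paired analysis was possible because the labels give no pairs, and replicate numbers within a genotype only name the livers. Of 149 alternative log2 fold changes of the 10 genes, 144 kept direction and call, 3 passed where the comparison as designed did not, 2 lost the call, and none changed sign. The 144 include all 14 alternatives of *Hao2*. As *Hao2* met the expression filter in BCL6LKOFXRKO livers alone, these 14 add no support. Scaling to total counts alone, which moved the median gene by -0.16, gave a log2 fold change of -0.57 for *Nudt12* (adjusted p = 0.0258, of a range from 0.0258 to 0.179 over all alternatives) and 2949 genes called lower in all, against 1665. The share of called genes that were higher became 32.3%, against 54.5%. Across the fits without each liver, the log2 fold change lay between -0.52 and -0.25 for *Nudt12*, between -0.47 and -0.31 for *Nudt19* and between 0.24 and 0.45 for *Agxt*, with 1 to 2 of the 10 genes called higher, 6 to 8 called lower, and 1267 to 1668 of all genes called lower. With at least 10 counts in every liver, *Hao2* was not tested and 0 of the 10 genes were called higher by edgeR. With a log2 fold change beyond 0.5 as well, 6 of the 10 were lower. At this depth, *Hao2* in FXRKO livers is limited to under 0.375 CPM per library.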
